A study of Mus musculus with 120 samples.

Results

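RNA of the mouse striatum was compared between 175QK772T mice, which carry an expanded Atxn1 allele with a mutated nuclear localization signal, and wild-type (WT) mice at 10 weeks of age. The comparison used 8 of 120 libraries, 4 mice per genotype, taken by the region, age and genotype in the labels. Earlier results of these data were known when the comparison and the gene lists below were chosen. All mice were on the C57BL/6J strain, with 2 females and 2 males among the WT mice and 3 females and 1 male among the 175QK772T mice. The study sequenced polyadenylated RNA of 5 brain regions from WT, 175QK772T and 175Q mice, with different mice at 10 and at 26 weeks. 175Q mice (Atxn1 175Q/2Q) have 1 allele with a lengthened CAG repeat and 1 unexpanded allele. 175QK772T mice (Atxn1 175QK772T/2Q) have the same genotype except that their expanded allele also carries the K772T change. The question was which changes were left when the signal was mutated, so the striatal libraries of 4 175Q mice of the same age, 2 females and 2 males, are given beside the pair. Both lines are germline knock-ins, so the change was not limited to a cell type, and counts per gene add the mutant and the normal allele.

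Ataxin-1 is a nuclear protein that binds regulators of transcription, among them the repressor Capicua, and a lengthened glutamine stretch in it causes spinocerebellar ataxia type 1. The lysine changed by K772T belongs to the signal that brings the protein into the nucleus. Most neurons of the striatum are projection neurons that release GABA. They form a direct pathway, with the dopamine receptor Drd1, and an indirect pathway, with the dopamine receptor Drd2, the adenosine receptor Adora2a and enkephalin, and both read dopamine through cyclic AMP.

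The 8 libraries held 77061358 to 93146278 counted read pairs, and those of the 175Q mice lay within that range. Levels are given in CPM, in which the read pairs of a gene are scaled to the size of the library with TMM factors, and they compare mice within a gene, not genes with each other. The tissue label was checked against markers of the striatum, by means of WT mice of 10 weeks scaled within each region. Scn4b was at 1954 CPM in striatum, 124 in cortex and 27 in hippocampus. Pde10a was at 1644, 85.3 and 96.8 CPM and Adcy5 at 1478, 141 and 143 CPM in the same order. None of 18 projection neuron identity genes was at 0 in all 8 libraries, and they summed to 13870 to 18740 CPM in WT mice. In the same mice 10 genes of cortical excitatory neurons summed to 304.8 to 467.6 CPM, and none of those was at 0 in all 8 libraries either. The sums cover different genes, so they do not check the label. Log2 fold changes come from edgeR's quasi-likelihood test with sex as a covariate. The standard error (SE) after them was derived from the fold change and the F statistic of that test. A gene was called changed at a Benjamini-Hochberg adjusted p below 0.05 over all genes tested.

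The altered locus, Atxn1 (ENSMUSG00000046876), lies in GRCm38 on chromosome 13, 45549755 to 45965008, minus strand. Its level in striatum was 115, 115, 129 and 99.6 CPM in WT and 126, 124, 126 and 121 CPM in 175QK772T mice. The groups overlapped, and the log2 fold change of 0.10 ± 0.06 did not pass the test (edgeR adjusted p = 0.251). In 175Q mice it was at 107 to 116 CPM. Atxn1 was called higher in 175QK772T than in WT mice in cortex and hippocampus (0.20 ± 0.04 and 0.40 ± 0.05, edgeR adjusted p = 0.000411 and 0.000296). Its effect in striatum was lower than in hippocampus (-0.29 ± 0.07, edgeR adjusted p = 0.026) and was not told apart from cortex (edgeR adjusted p = 0.366). Counts per gene cannot show the K772T change itself, so the values check only the total of both alleles.

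Against WT, 1829 genes were higher and 2165 genes were lower in the 175QK772T striatum, of 20998 tested. That is 19% of the genes tested, 8.71% higher and 10.3% lower, and 6757 genes had an unadjusted p below 0.05. Counts of the gene lists below are to be read beside these shares. Most changes were small: 148 of the higher and 310 of the lower genes changed at least 2-fold, and 40 and 64 at least 4-fold. Of the 3994 called genes, 3366 (84.3%) had groups that did not overlap, and over all genes tested 10.3% were higher and 11.3% lower without overlap. In the females alone, 2 WT against 3 175QK772T mice, 2063 genes were called.

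**Figure D1:**
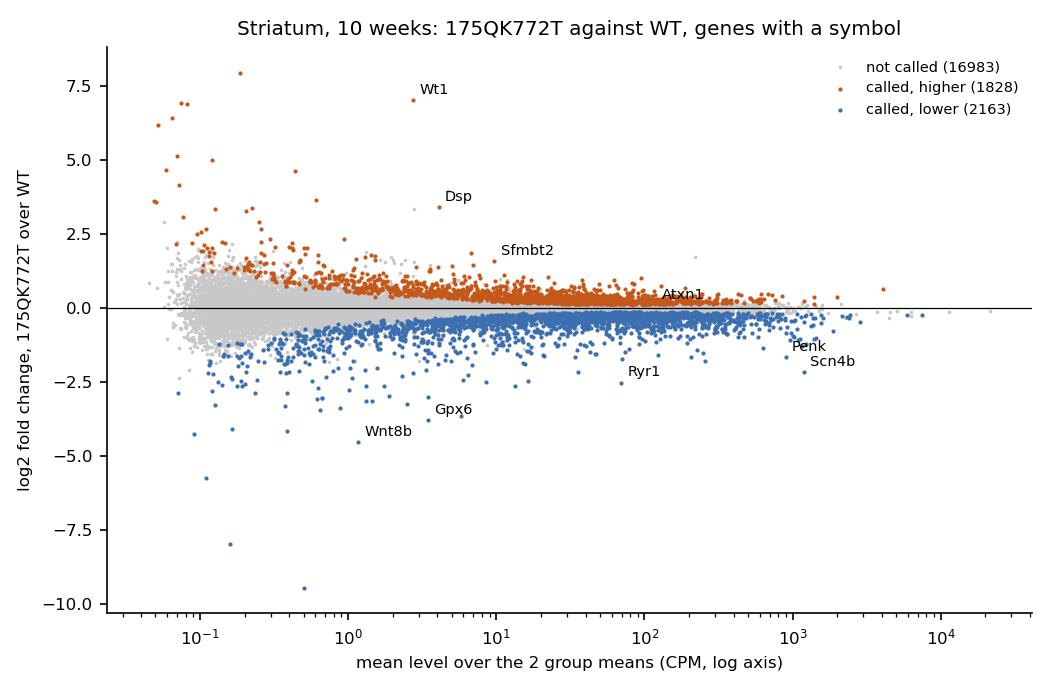
Each point is 1 gene, with its mean level in the 2 groups on the x axis (CPM, log axis) and the log2 fold change of 175QK772T over WT on the y axis, coloured where edgeR called it. Wt1, Dsp and Sfmbt2 lie above 0, Atxn1 lies near 0, and Wnt8b, Gpx6, Ryr1, Scn4b and Penk lie below 0.

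Genes that define striatal projection neurons were lower in 175QK772T mice. All 18 identity genes fell, with a median log2 fold change of -0.72 and a smallest fall of -0.29, and the groups did not overlap for 17 of them. The tissue is bulk RNA, in which fewer cells of a type and less RNA per cell cannot be told apart. Scn4b, a sodium channel beta subunit of these neurons (chromosome 9, 45138395 to 45154152, plus strand), was at 1832, 2121, 2334 and 1528 CPM in WT mice and at 382, 481, 402 and 462 CPM in 175QK772T mice. The highest 175QK772T mouse was far below the lowest WT mouse. WT was 4.52-fold higher (log2 fold change -2.18 ± 0.13, edgeR adjusted p = 5.6e-07). In 175Q mice Scn4b was lower still, at 224, 195, 202 and 259 CPM.

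Second messenger enzymes of the projection neurons showed the same separation. Pde10a, the phosphodiesterase that breaks down cyclic nucleotides in these neurons, was at 1539, 1735, 1875 and 1427 CPM in WT and at 589, 688, 576 and 792 CPM in 175QK772T mice. Adcy5, the main adenylyl cyclase of the striatum, went from 1478 ± 167 to 699 ± 105 CPM, and the phosphodiesterase Pde1b from 1367 ± 153 to 688 ± 97.6 CPM (SD, n = 4 per group). Every mutant mouse lay below every WT mouse for all 3 genes. Their log2 fold changes were -1.30 ± 0.11, -1.07 ± 0.10 and -0.98 ± 0.10 (edgeR adjusted p = 5.34e-06, 1.74e-05 and 2.55e-05).

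Among 8 direct pathway genes 2 fell and 1 rose, and the median log2 fold change was -0.14. Drd1, through which dopamine excites these neurons, was at 273, 289, 313 and 212 CPM in WT and at 125, 137, 112 and 153 CPM in 175QK772T mice. Chrm4, the muscarinic receptor of the same neurons, went from 59.5 ± 6.3 to 26.4 ± 3.7 CPM, and Eya1, a transcription cofactor, rose from 10.8 ± 1.42 to 16.5 ± 1.67 CPM (SD, n = 4 per group). None of the 3 had overlapping groups. Log2 fold changes were -1.04 ± 0.12, -1.16 ± 0.10 and 0.59 ± 0.11 (edgeR adjusted p = 4.73e-05, 4.69e-06 and 0.00213). The peptide precursors Tac1 and Pdyn were not called, at log2 fold changes of 0.18 ± 0.10 and -0.19 ± 0.11.

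Of 7 indirect pathway genes tested 5 fell, and the median log2 fold change was -0.97. Penk, the enkephalin precursor (chromosome 4, 4133531 to 4138819, minus strand), was at 1377, 1455, 1518 and 1112 CPM in WT and at 433, 443, 332 and 522 CPM in 175QK772T mice. Adora2a was at 338, 402, 406 and 320.1 CPM in WT and at 124, 137, 113 and 136 CPM in 175QK772T mice. Drd2, through which dopamine inhibits these neurons, was at 257, 277, 322 and 216 CPM in WT and at 111, 129, 106 and 127 CPM in 175QK772T mice. The mutant mice were below all WT mice for each of them. Log2 fold changes were -1.66 ± 0.12, -1.51 ± 0.10 and -1.19 ± 0.10 (edgeR adjusted p = 2.35e-06, 6.31e-07 and 6.17e-06), and the receptor Gpr6 and the membrane protein Plxdc1 had -0.96 ± 0.13 and -0.97 ± 0.08. Whether the indirect list fell more than the direct list was not tested.

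**Figure D2:**
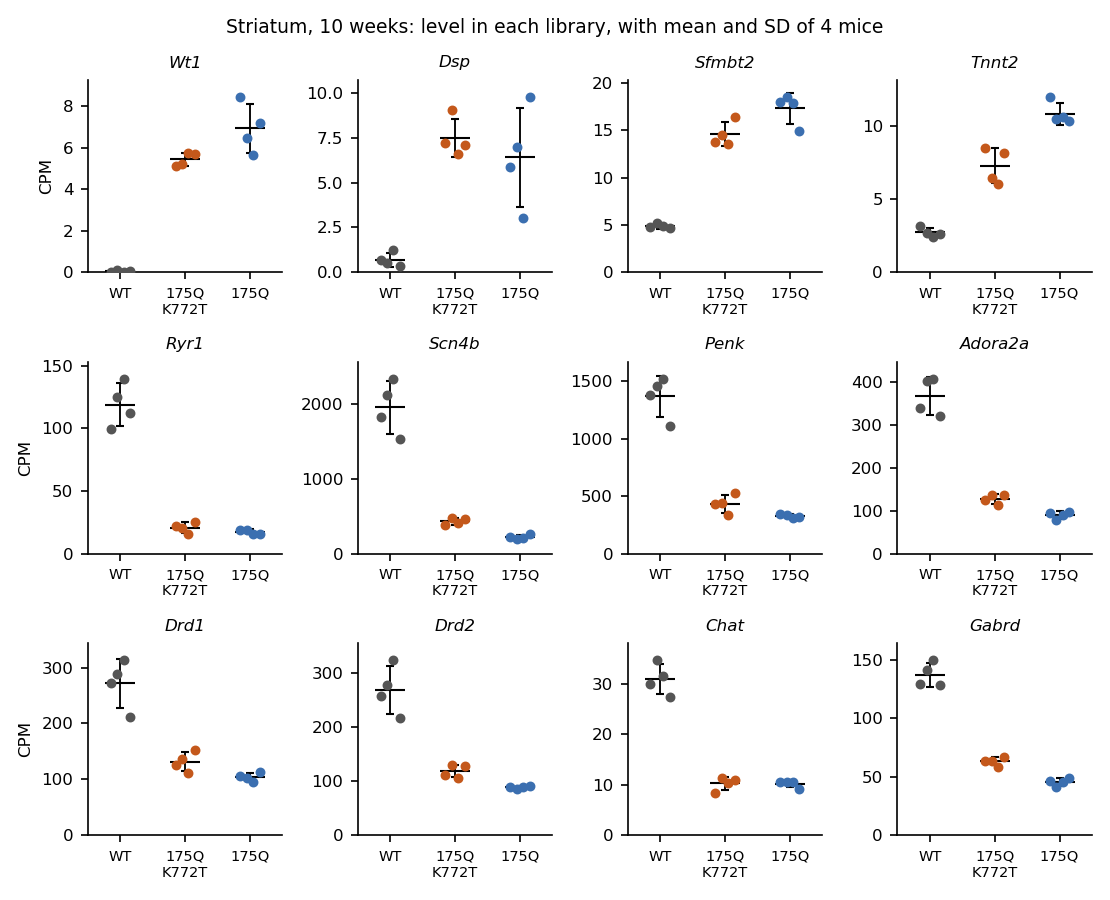
Each point is 1 mouse (CPM on the y axis, each gene on its own axis), with the mean and SD of 4 mice per genotype. In none of the 12 genes do the 175QK772T and WT mice overlap, and for Scn4b, Adora2a, Drd2, Gabrd and Tnnt2 the 175QK772T mice lie between WT and 175Q mice.

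Interneuron genes were lower as well, 7 of 10, with a median log2 fold change of -0.69. The leading members make or move acetylcholine. Chat, which synthesizes it, was at 29.96, 34.6, 31.6 and 27.5 CPM in WT, at 8.4, 11.4, 10.2 and 10.9 CPM in 175QK772T and at 10.4, 10.6, 10.5 and 9.12 CPM in 175Q mice. All WT mice were above all mutant mice, and the mutant lines overlapped each other. Slc5a7, the choline transporter, went from 50.7 ± 4.64 to 19.1 ± 2.21 CPM, and Slc18a3, the vesicular acetylcholine transporter whose count is less certain because it lies within Chat on the same strand, from 10.5 ± 0.908 to 3.76 ± 0.576 CPM. Log2 fold changes of the 3 genes were -1.59 ± 0.10, -1.42 ± 0.10 and -1.49 ± 0.13 (edgeR adjusted p = 6.31e-07, 1.1e-06 and 6.59e-06). Npy, a peptide of other interneurons, had -0.64 ± 0.08, while Vip, Pvalb and Calb2 were not called.

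Of 20 dopamine and cyclic AMP signalling genes 12 fell and 1 rose (median log2 fold change -0.49). Rgs4, which shortens G protein signals, was at 901, 936, 1012 and 726 CPM in WT and at 324, 376, 397 and 339 CPM in 175QK772T mice, far apart (log2 fold change -1.34 ± 0.09, edgeR adjusted p = 1.33e-06). The gene that rose, named after its value was seen, was the dopamine receptor Drd3, at 0.92, 1.4, 0.931 and 0.963 CPM in WT and at 2.53, 2.32, 1.76 and 2.95 CPM in 175QK772T mice.

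Of 16 glutamate receptor and scaffold genes 11 fell (median log2 fold change -0.26). Homer1, which ties metabotropic receptors to calcium stores, was at 238, 242, 240.5 and 193 CPM in WT and at 112, 122, 127 and 117 CPM in 175QK772T mice. Dlg4, a postsynaptic scaffold, went from 808 ± 52.7 to 578 ± 31.5 CPM and the kainate receptor subunit Grik2 from 170.3 ± 12.5 to 112 ± 10.5 CPM. The groups were apart for all 3 genes, with log2 fold changes of -0.95 ± 0.07, -0.50 ± 0.06 and -0.61 ± 0.08 (edgeR adjusted p = 1.39e-06, 8.7e-05 and 0.000144).

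Of 15 GABA genes 3 fell and 1 rose, beside 10.3% lower and 8.71% higher over all genes, and the median log2 fold change was 0.06. Their count was thus close to the background. Gabrd, the delta subunit of receptors outside the synapse, was at 129, 142, 149 and 128 CPM in WT and at 63.2, 63.6, 58.6 and 67.1 CPM in 175QK772T mice. Gabra2, an alpha subunit, was at 75.8, 67.8, 76.9 and 61.9 CPM in WT and at 98, 92.9, 87.4 and 90.9 CPM in 175QK772T mice. The first was lower and the second higher in every mutant mouse (log2 fold changes -1.11 ± 0.07 and 0.35 ± 0.05, edgeR adjusted p = 4.07e-07 and 0.000639). Gabbr1 and Gabra4, a metabotropic and an ionotropic receptor subunit, fell by 0.19 ± 0.05 and 0.29 ± 0.10 on the log2 scale (edgeR adjusted p = 0.0255 and 0.0494). Without any 1 of WT replicates 1, 2 and 3 and 175QK772T replicates 1 and 3 neither was called, with edgeR adjusted p from 0.055 to 0.171, and the count of the list was 2.

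Of 19 potassium channel genes 12 fell (median log2 fold change -0.35). Kcnh4, a voltage-gated channel, went from 61.8 ± 8.41 to 26.1 ± 3.44 CPM, and Kcnip2, an auxiliary subunit of A-type channels, from 299 ± 33.2 to 193 ± 15.1 CPM (log2 fold changes -1.22 ± 0.10 and -0.63 ± 0.08). Of 18 calcium handling genes 12 fell and 1, Cacna1d, rose (median log2 fold change -0.36). Ryr1, a calcium release channel of the endoplasmic reticulum (chromosome 7, 29003344 to 29125179, minus strand), was at 99.6, 125, 139.6 and 112 CPM in WT and at 21.6, 20.6, 15.6 and 25.4 CPM in 175QK772T mice. WT was 5.72-fold higher, with no overlap (log2 fold change -2.52 ± 0.14, edgeR adjusted p = 3.5e-07). Hpca, a calcium sensor, and Itpr1, the inositol trisphosphate receptor, had log2 fold changes of -1.06 ± 0.09 and -0.83 ± 0.07.

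Of 16 immediate early genes 3 fell (median log2 fold change of the list -0.10), beside 10.3% of all genes tested. They were Egr1, Egr2 and Egr3, which encode activity-dependent transcription factors. Egr3 was at 153, 150, 140.5 and 140.4 CPM in WT and at 98.1, 94.8, 85.6 and 105 CPM in 175QK772T mice, with no overlap (log2 fold change -0.61 ± 0.06, edgeR adjusted p = 3.28e-05). Egr2 was at 10.8, 4.74, 5.51 and 5.5 CPM in WT and at 3.14, 2.19, 2.61 and 2.03 CPM in 175QK772T mice, so WT replicate 1 stood above the other WT mice. Without the sex term Egr1 was not called (edgeR adjusted p = 0.0543).

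Of 14 neuropeptide genes 3 fell, Penk, Npy and Sst (median log2 fold change of the list -0.34), beside 10.3% of all genes tested. Somatostatin (Sst) was at 176, 182, 125 and 148 CPM in WT and at 128, 111, 92.1 and 115 CPM in 175QK772T mice, which overlapped. Its edgeR adjusted p was 0.0137, and 0.0717 without WT replicate 1. Without WT replicate 3 the list had 6 called genes.

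Of 12 retinoid genes, through which the striatum makes and reads retinoic acid, 6 fell (median log2 fold change -0.44). Rxrg, a retinoid receptor, was at 130, 150.2, 144 and 91.9 CPM in WT and at 58.3, 71.4, 51.1 and 72.1 CPM in 175QK772T mice. Crabp2, which carries retinoic acid, went from 2.18 ± 0.422 to 0.976 ± 0.0906 CPM, and Aldh1a1, which makes it, from 80.3 ± 9.28 to 41.3 ± 10.5 CPM. In all 3 every mutant mouse was below every WT mouse, with log2 fold changes of -1.04 ± 0.14, -1.21 ± 0.16 and -0.997 ± 0.15 (edgeR adjusted p = 0.000249, 0.000157 and 0.000591).

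**Figure D3:**
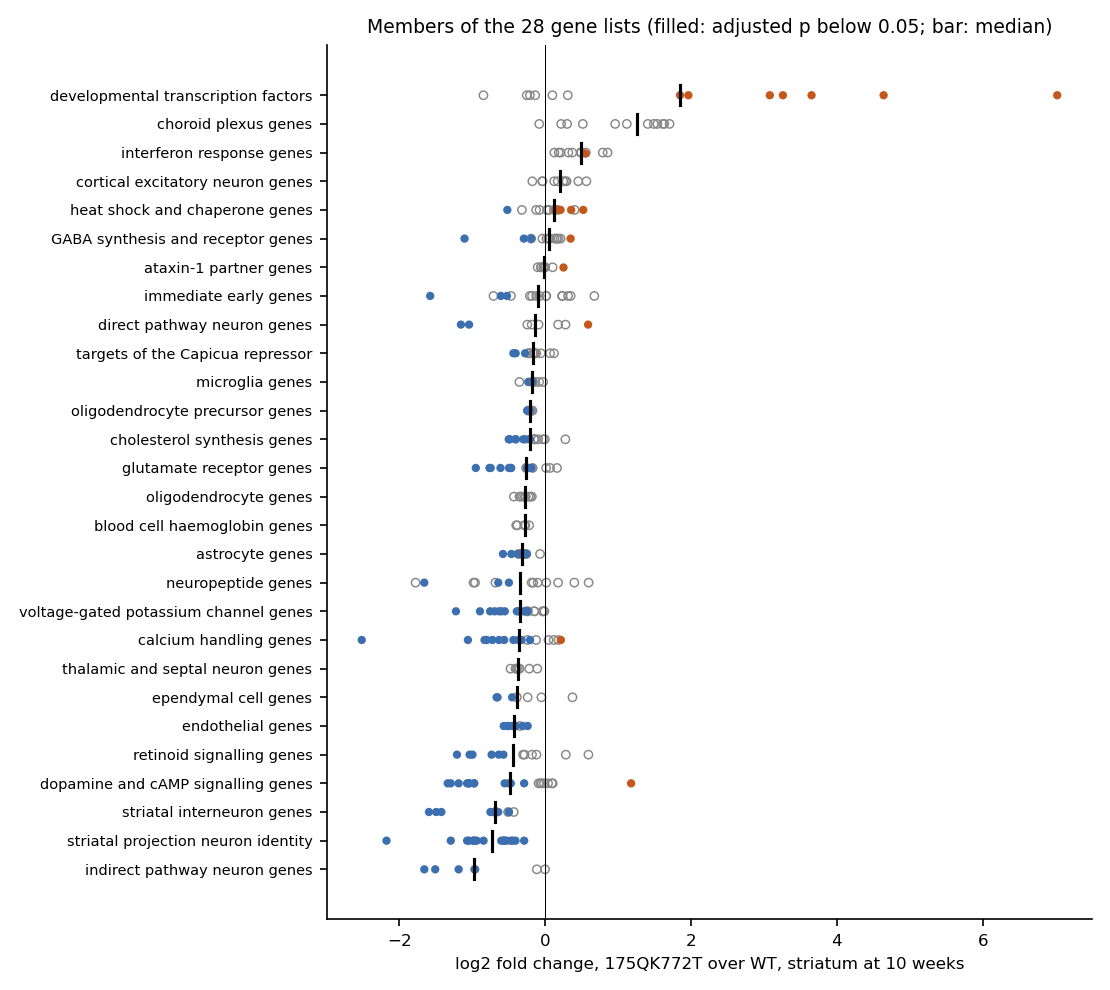
Each point is 1 member of a list, placed by its log2 fold change of 175QK772T over WT on the x axis and filled where edgeR called it, and the bar is the median of the list. Indirect pathway, projection neuron and interneuron genes have the lowest medians (-0.97, -0.72 and -0.69). Developmental transcription factors are drawn only for the 13 of 20 that passed the low-count filter, so their median does not describe the list.

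Genes of astrocytes and vessels were lower too. Of 12 astrocyte genes 7 fell (median log2 fold change -0.31), among them the glutamate transporter Slc1a2, at 3066 to 3450 CPM in WT and 2227 to 2809 CPM in 175QK772T mice, and Aldh1l1, at 59.7 to 69.7 and 48 to 51.9 CPM. Of 8 endothelial genes 7 fell (median log2 fold change -0.43), among them the growth factor receptor Kdr, at 13.6 to 15.5 and 9.04 to 11.6 CPM, and the tight junction gene Cldn5, at 26.7 to 37.9 and 21.4 to 23.2 CPM. The groups did not overlap in these 4 genes, whose log2 fold changes were -0.46 ± 0.07, -0.37 ± 0.05, -0.57 ± 0.09 and -0.51 ± 0.10. In the females alone 4 astrocyte and 5 endothelial genes were called. Summed over their lists, astrocyte genes were at 5656 to 6256 CPM in WT and 4249 to 5120 CPM in 175QK772T mice, and endothelial genes at 380 to 434.8 and 276.5 to 321.8 CPM. The part of the cell makeup of the dissected tissue in the neuronal values was not tested.

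Markers of microglia, oligodendrocyte precursors and ependyma were close to the threshold. Of 10 microglia genes 4 fell (median log2 fold change -0.17), led by the chemokine receptor Cx3cr1, at 70.2 to 76.3 CPM in WT and 57.7 to 66 CPM in 175QK772T mice. The microglia count was 1 without WT replicate 1 and 1 without 175QK772T replicate 4. Of 6 precursor genes 2 fell, among them the receptor Pdgfra, at 62.6 to 72.3 and 55.8 to 59.2 CPM, and counts without single libraries ran from 1 (without WT replicate 1, 2 or 4 or 175QK772T replicate 4) to 4 (without WT replicate 3). Of 7 ependymal genes 3 fell, and the count was 1 without any 1 of WT replicates 1, 3 and 4 and 175QK772T replicates 1, 2 and 3.

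No member of 5 other cell type lists was called by edgeR. Of 10 oligodendrocyte genes 7 had an unadjusted p below 0.05 and DESeq2 called 4, with a median log2 fold change of -0.27. For 8 thalamic and septal genes the median was -0.37, with 3 at an unadjusted p below 0.05 and 1 called by DESeq2. For 5 haemoglobin and red cell genes it was -0.28, with 1 at an unadjusted p below 0.05 and 0 called by DESeq2.

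Levels of cortical neuron and choroid plexus genes varied between libraries. Of 10 cortical excitatory neuron genes (median log2 fold change 0.21) and 12 choroid plexus genes (median 1.26), 0 had an unadjusted p below 0.05 and DESeq2 called 0. Slc17a7, the vesicular glutamate transporter of cortical neurons, was at 229.9, 184, 104 and 222 CPM in WT, at 269.6, 159.8, 271 and 65.7 CPM in 175QK772T and at 41, 29.2, 65 and 87 CPM in 175Q mice. The 4 175Q mice were below all WT mice for it, and 175QK772T replicate 4 was the lowest of its group. Summed, choroid plexus genes were at 531.9 to 736.4 CPM in WT and at 363.7 to 2015 CPM in 175QK772T mice, where replicate 2 was high. Without that mouse 81.5% of the calls against WT were kept.

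Of 9 tested genes of ataxin-1's partners 1 rose, beside 8.71% of all genes tested, so the count was close to the background. This gene, the histone deacetylase Hdac3, was at 71.1 to 74.9 CPM in WT and 80.6 to 90.6 CPM in 175QK772T mice. Its log2 fold change was 0.25 ± 0.05 (edgeR adjusted p = 0.00213). In the females alone it was not called (edgeR adjusted p = 0.0602). Cic, the gene of Capicua, had a log2 fold change of -0.01 ± 0.06.

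Capicua holds down genes of growth factor signalling. Of 13 tested targets 3 fell (median log2 fold change of the list -0.16), beside 10.3% of all genes tested. Spry2, an inhibitor of receptor tyrosine kinase signals, was at 62.2, 56.5, 58.1 and 50.9 CPM in WT and at 41.3, 43.1, 39.9 and 44.3 CPM in 175QK772T mice. Etv5, a transcription factor of the ETS family, was at 85.8, 79.96, 74 and 73 CPM in WT and at 59, 59.7, 67.1 and 55.8 CPM in 175QK772T mice. Neither overlapped (log2 fold changes -0.44 ± 0.06 and -0.41 ± 0.06, edgeR adjusted p = 0.000245 and 0.000472), while Spred1, another inhibitor of the pathway, had -0.28 ± 0.07 with overlapping groups. Without WT replicate 3 the count was 5.

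Capicua binds the octamers TGAATGAA and TCAATGAA, which were searched on both strands in the 250 bases before the first listed start of each gene in RefSeq (GRCm38.p6). They were in 462 of 27025 promoters (1.71%), in 160 of 13560 promoters of tested genes (1.18%) and in 2 of the 8 targets with a promoter entry. Both are printed because 1 belongs to a target that fell and 1 to a target that was not called (Spred3, log2 fold change 0.07 ± 0.07). They run 5′ to 3′ along the gene, on the minus strand at chr14:105896820-105897069 and chr7:29168648-29168897, with the octamer or its reverse complement in capitals.
Spry2: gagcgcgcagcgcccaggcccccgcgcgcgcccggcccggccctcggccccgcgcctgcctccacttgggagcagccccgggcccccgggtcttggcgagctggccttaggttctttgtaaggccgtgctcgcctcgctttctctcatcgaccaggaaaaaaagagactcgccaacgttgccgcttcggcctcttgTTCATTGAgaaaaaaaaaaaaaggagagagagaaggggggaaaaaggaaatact
Spred3: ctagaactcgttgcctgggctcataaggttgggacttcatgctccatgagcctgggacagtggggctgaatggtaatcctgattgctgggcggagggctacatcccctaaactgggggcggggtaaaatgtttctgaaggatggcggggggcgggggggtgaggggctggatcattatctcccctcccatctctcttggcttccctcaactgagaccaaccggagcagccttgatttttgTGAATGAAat
A match describes the letters only, and binding was not measured.

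Some transcription factors of development rose. Of the list, Sall1 and Pax6 were at 38 and 9.04 CPM in WT striatum and were not called, while others were near 0 there. Of 20 listed, 13 had enough counts to be tested and 7 of these rose, with a median log2 fold change of 1.85. A gene near 0 in WT passes the filter through the mutants, so neither value describes the whole list. Wt1, a zinc finger factor of kidney and gonad development (chromosome 2, 105126529 to 105173616, plus strand), was at 0.0129, 0.0905, 0 and 0.0528 CPM in WT and at 5.12, 5.23, 5.72 and 5.68 CPM in 175QK772T mice, from 13 and 1859 read pairs over each 4 mice. It was near 0 in every WT mouse and above 5 CPM in every mutant mouse (log2 fold change 7.02 ± 0.36, edgeR adjusted p = 2.53e-07). With so few read pairs in WT the fitted value depends on the prior count of the test. In 175Q mice it was at 5.64 to 8.42 CPM.

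Other members rose at lower levels. Pou4f1, a factor of sensory neurons, went from 0.0895 ± 0.0278 to 1.13 ± 0.254 CPM, Onecut1, a factor of liver development, from 0.032 ± 0.0481 to 0.844 ± 0.216 CPM, and Pax2, a factor of kidney and midbrain, from 0.0351 ± 0.0137 to 0.376 ± 0.256 CPM. None of the 7 that rose had overlapping groups. Log2 fold changes of the 3 were 3.65 ± 0.28, 4.64 ± 0.56 and 3.26 ± 0.59, but WT held 28, 10 and 11 read pairs of them in all, so these fitted values depend on the prior count as well. The 6 tested members that were not called ran from -0.85 to 0.31.

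Where the level averaged 1 CPM or more across the 8 libraries and the groups did not overlap, the 12 largest rises included Wt1, Dsp, Srp54b, Crnde, Smim24, Adamts19, Sfmbt2, Tnnt2, Rgsl1, Emx2os and Klhl14, with log2 fold changes of 1.32 to 7.02. Dsp, the desmosome protein desmoplakin (chromosome 13, 38151294 to 38198577, plus strand), was at 0.673, 0.498, 1.22 and 0.343 CPM in WT and at 7.21, 9.06, 6.62 and 7.12 CPM in 175QK772T mice (3.41 ± 0.36, edgeR adjusted p = 3.57e-05). Sfmbt2, a Polycomb group protein, was at 4.71, 5.19, 4.87 and 4.62 CPM in WT and at 13.8, 14.6, 13.6 and 16.4 CPM in 175QK772T mice (1.59 ± 0.09, edgeR adjusted p = 3.5e-07). Each mutant mouse was well above each WT mouse for both. Tnnt2, cardiac troponin T, went from 2.71 to 7.27 CPM on average. Srp54b has near-identical copies, and Emx2os is antisense to another gene, so their counts are less certain.

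The 12 largest falls by the same rule were Wnt8b, Gpx6, Abhd11os, Sec14l3, AC128672.1, Mafa, Vwa7, Il2rb, Gpr139, Tmprss6, Ryr1 and Ptpn7, with log2 fold changes of -4.52 to -2.51. Gpx6, a glutathione peroxidase (chromosome 13, 21312125 to 21319624, plus strand), was at 6.44, 5.76, 10.6 and 2.94 CPM in WT and at 0.75, 0.615, 0.281 and 0.405 CPM in 175QK772T mice (-3.78 ± 0.30, edgeR adjusted p = 3.63e-06). Wnt8b, a secreted Wnt ligand, was at 1.74, 2.73, 3.03 and 1.5 CPM in WT and at 0, 0.115, 0.0352 and 0.224 CPM in 175QK772T mice, from 720 and 33 read pairs over each 4 mice (-4.52 ± 0.58, edgeR adjusted p = 0.00015). WT mice varied among themselves for both genes, and still no mutant mouse reached the lowest of them. Gpr139, a receptor of striatum and habenula, went from 22.9 to 3.86 CPM and Mafa, a transcription factor of the MAF family, from 6.12 to 0.757 CPM on average.

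Cholesterol and chaperone genes moved by less. Of 15 cholesterol synthesis genes 8 fell, all without overlap (median log2 fold change -0.21), and 4 were called in the females alone. Msmo1, a sterol oxidase, was at 94.2, 87.2, 96.7 and 88.8 CPM in WT and at 63.9, 68.6, 67.8 and 61 CPM in 175QK772T mice (log2 fold change -0.50 ± 0.06, edgeR adjusted p = 5.02e-05). Of 15 heat shock genes 5 rose and 1 fell (median log2 fold change 0.12). Hspa8, a constitutive chaperone, was at 1309, 1157, 1179 and 1180 CPM in WT and at 1515, 1600, 1754 and 1430 CPM in 175QK772T mice (log2 fold change 0.36 ± 0.06, edgeR adjusted p = 0.000949). The small heat shock protein Hspb8 had -0.52 ± 0.09. The count of the list was 3 without WT replicate 1, without WT replicate 3 and without 175QK772T replicate 3.

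Of 12 interferon response genes 1 rose, beside 8.71% of all genes, and the median log2 fold change was 0.49. The count was 0 without any 1 of WT replicates 1 and 3 and 175QK772T replicates 1 and 2, and also in the females alone. It was 2 without 175QK772T replicate 3 and 7 without the low-count filter. Usp18, an interferon-induced protease, was at 1.58, 1.1, 1.27 and 0.99 CPM in WT and at 5.1, 4.01, 1.05 and 1.03 CPM in 175QK772T mice. Replicates 1 and 2 of the mutants were high for it and the other two within the WT range, and it was not called.

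Set against 175Q mice, in which the signal is intact, 126 genes differed (0.6% of 20998), 117 higher (0.557%) and 9 lower (0.0429%) in 175QK772T mice. The contrast shares the 175QK772T libraries with the one against WT, so values are given side by side. Of the 126, 92 were lower than in WT and higher than in 175Q, 5 were higher than in WT and lower than in 175Q, and 2 were higher than in both. Scn4b was 0.98 ± 0.13 above 175Q on the log2 scale, Gabrd 0.50 ± 0.07, Adora2a 0.53 ± 0.09, Rgs4 0.51 ± 0.09 and Chrm4 0.50 ± 0.10 (edgeR adjusted p = 0.00782, 0.0076, 0.0286, 0.0326 and 0.0398). All 5 were lower than in WT. Cortical excitatory neuron genes summed to 249.5 to 570.9 CPM in 175QK772T and to 185.4 to 262.9 CPM in 175Q mice, and their part in these differences was not tested.

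Many striatal genes did not pass this test. Of the 18 projection neuron genes 1, Scn4b, was called, and the median difference was 0.26 beside -0.01 over all genes. Penk, Drd1, Drd2, Pde10a and Adcy5 were 0.41 ± 0.12, 0.34 ± 0.12, 0.41 ± 0.10, 0.40 ± 0.11 and 0.39 ± 0.10 above 175Q on the log2 scale (edgeR adjusted p = 0.165, 0.221, 0.0945, 0.126 and 0.117). Chat differed by 0.01 ± 0.10 and Wt1 by -0.34 ± 0.22 (edgeR adjusted p = 0.979 and 0.563). A p above the threshold does not show that the lines were alike.

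By the naming rule the leading genes above 175Q were Mas1, Robo3 and Wnt4, and those below were Thbs1, Dpyd and Gprasp2. Mas1, a receptor of the angiotensin system, was at 7.93 to 8.88 CPM in WT, at 6.91, 2.75, 3.7 and 4.03 CPM in 175QK772T and at 1.32 to 1.81 CPM in 175Q mice (1.40 ± 0.23, edgeR adjusted p = 0.0177). Robo3, an axon guidance receptor, was at 16.6 to 24.4, 6.38 to 12.6 and 3.05 to 4.68 CPM in the same order (1.22 ± 0.20, edgeR adjusted p = 0.0218). Gprasp2, a sorting protein of G protein-coupled receptors, was at 92.9 to 97.7, 154.5 to 168 and 186 to 258 CPM (-0.44 ± 0.07, edgeR adjusted p = 0.0255). In these 3 genes the 175QK772T mice lay between the other groups without overlap. Mas1, Robo3 and Wnt4 were higher in WT cortex (18.3, 71.6 and 27.5 CPM, scaled within cortex) than in WT striatum (8.31, 20.8 and 6.5 CPM). The sums of cortical genes in both lines are given above, and their part in the values of these 3 genes was not tested.

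The count against 175Q moved with single libraries. It was 17, 23 and 25 without 175Q replicates 1, 2 and 3, 34 and 49 without 175QK772T replicates 1 and 2, and 271 without 175QK772T replicate 4. DESeq2 called 644, of which 522 were higher in 175QK772T mice.

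The same contrast was made in other mice at 26 weeks, counted as a separate set, so age and any batch cannot be told apart. Striatal libraries of WT and 175QK772T mice held 28650608 to 57281437 counted read pairs there, beside 77061358 to 93146278 at 10 weeks. The part of depth in the comparison of ages was not tested. At 26 weeks the genotype field reads 175Q and 175QK772T, while the descriptions of 40 of the 60 libraries of that age name alleles of another repeat length. There 2150 genes were higher and 2450 lower of 19692 tested (23.4% called, 10.9% higher and 12.4% lower). Of 3905 genes called at 10 weeks and tested at 26 weeks, 2507 (64.2%) were called the same way at 26 weeks. They were 54.9% of the 4569 genes called at 26 weeks and tested at 10 weeks, and 4 genes were called in opposite directions.

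All 18 projection neuron genes also fell at 26 weeks, with a median log2 fold change of -1.43. Scn4b was then at 1828, 1759, 1229 and 1981 CPM in WT and at 109.5, 114, 132 and 175 CPM in 175QK772T mice. Gsg1l, an auxiliary subunit of AMPA receptors, was at 178, 199.9, 195 and 169.5 CPM in WT and at 63.9, 60.4, 56.3 and 65.1 CPM in 175QK772T mice at 10 weeks, and went from 186 ± 10.6 to 45.6 ± 6.67 CPM at 26 weeks. Each mutant mouse was below each WT mouse for both genes at both ages. Gsg1l had log2 fold changes of -1.60 ± 0.07 and -2.04 ± 0.09 (edgeR adjusted p = 8.6e-08 and 1.44e-07). Ddit4l, an inhibitor of mTOR signalling, had -2.47 ± 0.13 and -2.51 ± 0.11, and Sfmbt2 had 1.59 ± 0.09 and 2.44 ± 0.14.

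**Figure D4:**
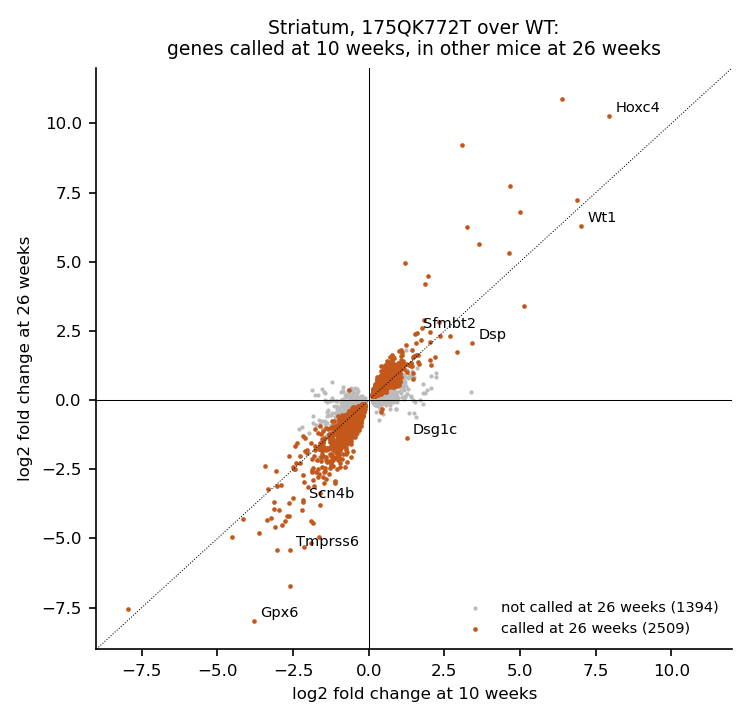
Each point is 1 gene called at 10 weeks, with its log2 fold change of 175QK772T over WT at 10 weeks on the x axis and in other mice at 26 weeks on the y axis. Of the genes with a symbol 2509 were also called at 26 weeks and 1394 were not.

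The change of the effect between the ages was tested itself, and 42 of 22038 genes passed (0.191%), 13 higher (0.059%) and 29 lower (0.132%) at 26 weeks. Shox2, a homeobox factor, was at 0.181, 1.49, 0.171 and 0.383 CPM in WT and at 0.405, 0.461, 0.445 and 0.682 CPM in 175QK772T mice at 10 weeks. At 26 weeks it was at 0.293, 0.0232, 0.0447 and 0.152 CPM in WT and at 12.4, 15.6, 15 and 16.5 CPM in 175QK772T mice. The groups overlapped at 10 weeks and were far apart at 26 weeks (difference of the effects 6.83 ± 0.73, edgeR adjusted p = 0.000131). Lmx1b, another homeobox factor, went from 0.121 ± 0.0732 to 9.04 ± 3.43 CPM at 26 weeks (4.82 ± 0.73). Gpx6 fell further, with a difference of -4.22 ± 0.57, and Dsg1c, a desmosomal cadherin, rose at 10 weeks (1.26 ± 0.19) and fell at 26 weeks (-1.38 ± 0.27).

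Hoxc4 and Barx1, which are homeobox genes, had 0 read pairs in the 4 WT libraries at either age. Against a floor of 3 read pairs over the group, Hoxc4 was at least 39.4-fold higher in 175QK772T mice at 10 weeks and at least 195-fold higher at 26 weeks. Barx1 was at least 13.4-fold and at least 287-fold higher. Floors cover counting error only, and at 10 weeks 1 of the 4 mutant mice also had no Barx1.

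The count of the interaction with age moved with single libraries. It was 23, 77 and 27 without 10-week WT replicates 1, 3 and 4, and 82 and 15 without 10-week 175QK772T replicates 3 and 4. It was 27 and 197 without 26-week WT replicates 2 and 3, and 24 and 110 without 26-week 175QK772T replicates 2 and 4. DESeq2 called 282.

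Each mouse also gave cortex and hippocampus, so the effect of the genotype was compared between regions within mice. In cortex 2458 of 20748 genes were called higher (11.8%) and 2904 lower (14%), and in hippocampus 1072 of 21071 higher (5.09%) and 1201 lower (5.7%). The effect differed between striatum and cortex for 1774 of 22077 genes (8.04%), higher in striatum for 916 (4.15%) and lower for 858 (3.89%). Between striatum and hippocampus it differed for 978 of 22158 genes (4.41%), higher in striatum for 433 (1.95%) and lower for 545 (2.46%). Of the 3994 genes called in the striatum 966 (24.2%) differed from cortex and 718 (18%) from hippocampus. Of these 539 and 449 fell with a lower effect in striatum, 349 and 258 rose with a higher one, 63 and 9 fell with a higher one, and 15 and 2 rose with a lower one. The striatal values enter both tests, so these counts are a description.

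Projection neuron genes were among them, with a lower effect in striatum for 11 of 18 against cortex and for 11 of 18 against hippocampus. Their median log2 fold change was -0.72 in striatum, -0.10 in cortex and -0.17 in hippocampus. Pde10a had log2 fold changes of -1.30, -0.03 and 0.09 in the same order, and Adcy5 -1.07, 0.14 and 0.13. The rise of Adcy5 in cortex, of 0.14 ± 0.04, was itself called (edgeR adjusted p = 0.0166). Scn4b had -2.18, -1.79 and -0.96, and its effect was not told apart from cortex (edgeR adjusted p = 0.338) but differed from hippocampus (edgeR adjusted p = 0.0166). Gabrd had -1.11, -1.34 and -1.14, with no difference called.

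**Figure D5:**
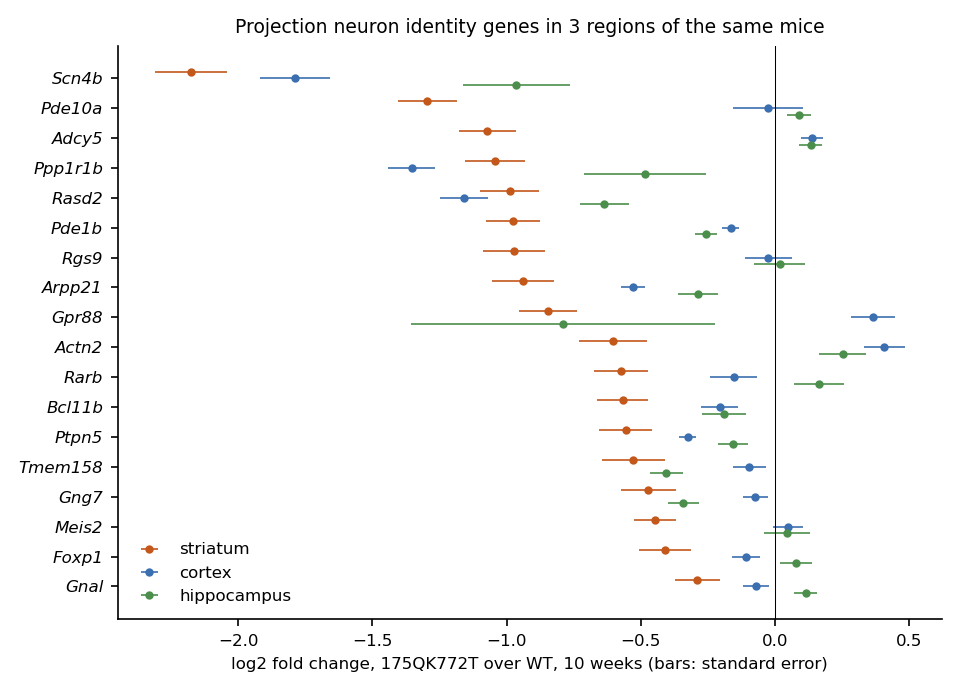
For the 18 projection neuron identity genes, points are log2 fold changes of 175QK772T over WT at 10 weeks in 3 regions of the same mice, and bars are standard errors. Scn4b and Ppp1r1b are low in cortex as well, while Pde10a, Adcy5 and Rgs9 are closer to 0 outside the striatum than in it.

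By the naming rule the leading differences lay in genes at very different levels in the regions. Wt1 rose more in striatum than in cortex, where it went from 69 to 574 read pairs over each 4 mice (difference of the effects 4.34 ± 0.40, edgeR adjusted p = 1.73e-05). Adam33, a membrane protease, went from 25 ± 4.4 to 2.25 ± 0.075 CPM in cortex and was at 0.92, 0.69, 0.394 and 0.435 CPM in WT and 2.01, 0.41, 0.422 and 0.523 CPM in 175QK772T striatum. It was thus low in every striatal library and not called there. Dsp went from 65.5 ± 6.12 to 45.8 ± 10.6 CPM in hippocampus, where WT had far more of it than any striatal library (difference of the effects 3.94 ± 0.31, edgeR adjusted p = 3.66e-05). That change in hippocampus was not called (-0.49 ± 0.16, edgeR adjusted p = 0.0734). In cortex Dsp rose from 0.253 to 1.06 CPM on average (2.21 ± 0.32, edgeR adjusted p = 5.61e-05). Its effect in striatum was not told apart from that in cortex (edgeR adjusted p = 0.164). Slc9a4, a sodium proton exchanger, and Fyb2 were also higher in WT hippocampus (19.6 and 4.45 CPM) than in WT striatum (0.127 and 0.282 CPM). Whether hippocampal RNA had a part in the striatal values of Dsp was not tested.

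Gpx6 had 0 read pairs in WT and 5 in 175QK772T mice in cortex, and the same numbers in hippocampus, so its differences of -7.48 ± 1.80 and -7.26 ± 1.08 depend on the prior count of the test. Lhx8, a factor of cholinergic neurons, had 0 and 10 read pairs in cortex beside 3217 and 2175 in striatum. Fgf3, a growth factor, had 119 read pairs in WT cortex and 0 in 175QK772T cortex, at least 42.7-fold lower against the same floor, and went from 6.78 to 2.16 CPM in striatum. The fitted differences of Lhx8 and Fgf3 from cortex depend on the prior count as well. The cortex count was 1172 without WT replicate 1. The hippocampus count was 507, 424, 620 and 527 without WT replicate 1, WT replicate 3, 175QK772T replicate 1 and 175QK772T replicate 4.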

How the data were processed

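Polyadenylated RNA of single mice was sequenced as 150-nt pairs, per the labels' protocols. What the authors deposited is an unnormalized count of read pairs for each gene. The submitters' processing notes name bcl2fastq 2.20.0, Trimmomatic 0.33, HISAT2 2.1.0, featureCounts in Subread 1.6.2 and the build GRCm38. For the 10-week counts the file headers record GRCm38.97 gene models, reverse-strand counting, both ends of a pair mapped and a mapping quality of 10 or more. These options are not given in the sources used here for the 26-week counts.

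Genes were tested with edgeR 4.0.16 in R 4.3.3 (low-count filter, TMM scaling, quasi-likelihood test of genotype with sex, Benjamini-Hochberg adjustment) on the 12 striatal libraries of 10 weeks, which share 1 estimate of the spread. Interactions used age with sex within age, or region with the mouse as a block and sex within region. DESeq2 1.42.0 and the other alternatives are in the closing section. P-values set an effect against the spread between these mice, and for the regions against the spread of their within-mouse differences. Low counts limit precision, and bounds cover counting error only.

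Named genes were Atxn1, the 12 largest called rises and falls of at least 1 CPM without overlap, 3 per direction in other contrasts, up to 6 genes called alike at both ages, and up to 4 members of smallest p per list. Sex chromosome Y genes, Xist, Tsix and unnamed gene models were left out, and a few others meeting it are not reported here. Of 331 genes in 28 lists 330 matched the files and 321 were tested. The comparison and the lists were chosen with earlier results of these data known. Counts of 20533 genes were simulated for this comparison, with 50 genes changed at each fold, all of at least 1 CPM in WT mice. The test recovered 40% of genes changed 1.25-fold, 76% at 1.5-fold, 98% at 2-fold and 100% at 4-fold, and 5 of 162 calls were false. Far fewer genes were changed than were called in the data, and no sex effect was simulated. These rates therefore do not carry over to the 3994 calls.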

Additional observations from a re-analysis of the deposited data

Results flagged for a closer look

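In 22 of 258 groups of 4 mice tested over 129 genes, 1 mouse stood apart from the other 3 by Dixon's criterion, which chance alone meets in about 1 of 20 groups. Of choroid plexus genes in 175QK772T replicate 2, Sostdc1 was at 6.75 CPM (0.642 to 0.914 in the other mice), Slc4a5 at 9.12 (0.476 to 1.13) and Folr1 at 9.49 (0.875 to 1.12). In the same mouse Kdr was at 11.6 CPM (9.04 to 9.4). In replicate 1 of the mutants Olig1 was at 115 CPM (135 to 139), Grm3 at 72.6 (80.1 to 81) and Onecut1 at 0.523 (0.922 to 0.992). In replicate 3 Alas2 was at 2.43 CPM (3.75 to 3.91), and in replicate 4 Tmprss6 was at 1.39 (0.117 to 0.286) and Flt1 at 47.4 (62.4 to 63.6).

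Among WT mice, replicate 1 had Egr2 at 10.8 CPM (4.74 to 5.51 in the others), Onecut1 at 0.104 (0 to 0.0132), Hspa8 at 1310 (1160 to 1180) and Hspb8 at 18.3 (15.9 to 16.3). Replicate 2 had Shc3 at 56.2 CPM (49.9 to 50.7), Idi1 at 13.6 (16.6 to 17.2) and Ddx60 at 0.996 (1.28 to 1.33). Adamts19 was at 0.734 CPM in replicate 3 (0.479 to 0.515). Replicate 4 had Rorb at 17.8 CPM (19.8 to 20), Tmem212 at 4.33 (2.82 to 3.03), Homer1 at 193 (238 to 242) and Dlg4 at 730 (825 to 844).

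The effect of the genotype differed between ages, by the test of the difference itself (26 minus 10 weeks, log2 ± SE, edgeR adjusted p), for Shox2 (6.83 ± 0.73, 0.000131), Lmx1b (4.82 ± 0.73, 0.0043), P4ha3 (1.28 ± 0.23, 0.0154), Gpx6 (-4.22 ± 0.57, 0.0016), Dsg1c (-2.62 ± 0.34, 0.000977) and Abcc12 (-1.65 ± 0.30, 0.0164). Between striatum and cortex it differed for Fgf3 (6.23 ± 0.92, 0.00185), Wt1 (4.34 ± 0.40, 1.73e-05), Adam33 (3.61 ± 0.48, 0.000304), Gpx6 (-7.48 ± 1.80, 0.026), Lhx8 (-5.22 ± 1.40, 0.0436) and Sec14l3 (-4.37 ± 0.39, 1.27e-05), by the same edgeR test. Between striatum and hippocampus it differed for Dsp (3.94 ± 0.31, 3.66e-05), Fyb2 (2.52 ± 0.35, 0.00158), Slc9a4 (2.03 ± 0.51, 0.0421), Gpx6 (-7.26 ± 1.08, 0.00559), Cd72 (-3.90 ± 0.48, 0.000702) and Abhd11os (-2.96 ± 0.40, 0.00128). In cortex or hippocampus Gpx6 and Lhx8 had 0 read pairs in a WT group and Fgf3 had 0 in 175QK772T cortex, so their fitted differences from these regions depend on the prior count of the test.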

How the results depend on the processing

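Against WT, 3994 genes were called, 4725 by DESeq2, 4021 with RLE scaling, 4758 without the low-count filter, 4126 without the sex term, 3496 from the 8 libraries alone and 2730 to 3966 without single libraries. In the females alone it was 2063, 744 of them higher. No call reversed under these settings, and 3954 (DESeq2) to 1911 (females) of the 3994 were kept. Against 175Q, DESeq2 called 644, the fit without the low-count filter 1285, that without the sex term 207, and leaving out single libraries gave 17 to 271. For the interaction with age, DESeq2 called 282, the fit without the filter 859, and leaving out single libraries gave 15 to 197. Striatum minus cortex gave 1172 to 1651 and striatum minus hippocampus 424 to 859 without single libraries. The cause of these shifts was not tested. With the replicate number as a block 3068 genes were called against WT, 56 against 175Q and 3723 at 26 weeks. Same-numbered mice had correlations of -0.09 to 0.18, and 1 of 4 was closest to its own number. With only 4 pairs, these values cannot decide whether the numbers pair the mice. Within 5 Mb of Atxn1 26 genes were called, within 20 Mb 74.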

Other observations

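Of the 200 genes most enriched in striatum over cortex, taken from the WT mice of 26 weeks, which are other animals, 199 were tested at 10 weeks, and 123 fell and 7 rose in 175QK772T mice (median log2 fold change -0.79). Of the 200 genes most enriched in cortex 167 were tested, and 3 fell and 2 rose (median 0.04). Lists of 100 and 500 striatum-enriched genes, lengths chosen after seeing the data, had 69 of 99 and 246 of 499 lower genes, with medians of -0.99 and -0.50.

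Within 10 Mb of Atxn1 on chromosome 13, 48 of 184 tested genes were called (26.1%, beside 19% of all genes tested), 25 higher and 23 lower, with a median log2 fold change of -0.02. Within 5 Mb it was 26 of 89 (29.2%) and within 20 Mb 74 of 333 (22.2%).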
